A study of Sus scrofa with 5 samples.

Results

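CXCL9, CXCL10 and CXCL11 are the chemokine ligands of the receptor CXCR3, and these 4 genes of the 20286 genes counted were followed through 5 single-cell RNA libraries of pig skin. They were picked by symbol, with their higher day 7 level in grafts given a focal adhesion kinase inhibitor already known. That difference is therefore given as a description of these libraries and supports nothing by itself. The counted identifiers were ENSSSCG00000032777 for CXCL9, ENSSSCG00000032474 for CXCL10, ENSSSCG00000008978 for CXCL11 and ENSSSCG00000012402 for CXCR3.

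The 3 ligands are small secreted CXC chemokines that lack the ELR motif and that many cell types make after exposure to interferon. Interferon-γ, made mainly by T cells and natural killer (NK) cells, acts through JAK kinases and the transcription factor IRF1 and is the classical inducer of CXCL9, while CXCL10 and CXCL11 also respond to type I interferons. CXCR3 is a G protein-coupled receptor carried above all by effector and memory T cells and by NK cells, which the ligands attract into inflamed skin. In people and mice, CXCL10 has also been studied as a brake on new vessels and as a regulator of dermal repair.

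The animals were pigs with full-thickness wounds covered by split-thickness skin grafts (STSG). A graft was dressed with a hydrogel releasing a focal adhesion kinase inhibitor (FAKI), renewed every other day, or was left untreated. The groups were FAKI grafts at day 7, untreated grafts at day 7, FAKI grafts at day 90, untreated grafts at day 90, and unwounded skin. All groups but the last share the wound and the graft. With a single library per group (1 each), no difference between groups has a replicate check. Cells came from more than 1 pig in the study as a whole, but the number of pigs behind each library, their age and their strain are not given in the sources used here. Intervals below are exact 95% intervals for counting error only, and a difference is called by size, at 1.5-fold or more.

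After filtering, 26842 cells of 32554 barcodes were kept, from 1542 to 8653 per library, with medians of 5495 to 9602 unique molecular identifiers (UMIs, counted transcript molecules) per cell. Of the barcodes in the unwounded library, 152 (8.07%) also stood in the FAKI day 90 library and 133 (7.06%) in the untreated day 90 library. The 2 day 7 libraries shared 32 barcodes and the other pairs 3 to 70. Cells were clustered and named from marker lists, and keratinocytes, fibroblasts, endothelial cells, pericytes or smooth muscle cells and leukocytes were all found, as skin should hold. Every measured marker was raised in the pericyte or smooth muscle-like class (12 of 12), the endothelial-like class (10 of 10) and the T or NK-like class (13 of 13). In the myeloid-like class 13 of 14 were raised, and in the B or plasma-like class 6 of 9. The classes were named from these same lists, so the counts describe the classes and do not test their names.

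Over all cells, RNA of the 3 ligands was highest in the FAKI day 7 library and lower in the untreated day 7 library. It was lower again in the other 3, by far for CXCL11 and least for CXCL9. Levels are UMIs of a gene per 1000000 UMIs of the library or class (CPM). CXCL10 reached 4354.1 CPM (interval 4338.6 to 4369.6) in the FAKI graft at day 7, against 283.7 CPM in the untreated graft at day 7. At day 90 it stood at 105.7 CPM in the FAKI graft and 53.13 CPM in the untreated graft, and unwounded skin had 83.12 CPM. The FAKI day 7 library thus stood alone, and the untreated graft at day 90 lay below unwounded skin. CXCL9 followed with 892.4 CPM in the FAKI graft and 112.7 CPM in the untreated graft at day 7, then 72.41 CPM in the FAKI graft and 37.25 CPM in the untreated graft at day 90, and 34.15 CPM in unwounded skin. CXCL11 had 141.1 CPM in the FAKI graft and 20.43 CPM in the untreated graft at day 7, but 0.4444, 0.449 and 1.071 CPM in the FAKI day 90, untreated day 90 and unwounded libraries, which is 21, 33 and 19 UMIs. CXCL11 RNA was thus close to absent outside the day 7 grafts at this depth.

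CXCR3 was a sparse transcript with the same lead for day 7. It had 377 UMIs (5.409 CPM) in the FAKI graft and 142 UMIs (2.128 CPM) in the untreated graft at day 7. It had 13 UMIs (0.2751 CPM) in the FAKI graft and 50 UMIs (0.6803 CPM) in the untreated graft at day 90, and 6 UMIs (0.3381 CPM) in unwounded skin. The order of the grafts was therefore opposite at the 2 times.

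The day 7 ratios of the FAKI to the untreated graft were 15.3 for CXCL10 (15.1 to 15.6), 7.92 for CXCL9 (7.73 to 8.11), 6.91 for CXCL11 (6.53 to 7.32) and 2.54 for CXCR3 (2.09 to 3.11). Of the 7706 genes at 10 CPM or more in either library, 2.32% were higher in the FAKI graft by 1.5-fold or more and 4.94% were lower. CXCR3 lay below that level, and since the members were chosen on this contrast nothing is read from their place in it. Median-of-ratios scaling moved every day 7 log2 ratio by 0.11, and all 4 stayed positive under the alternatives tried.

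**Figure D1:**
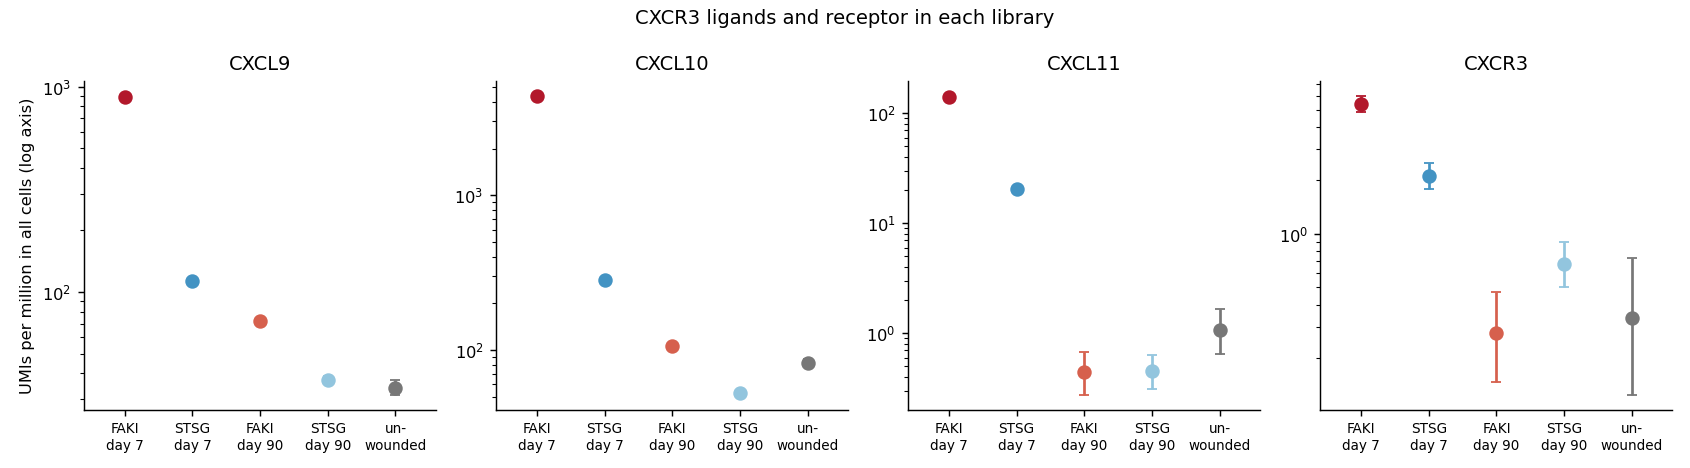
Level of each member over all kept cells of a library, in CPM on a log axis, with exact Poisson intervals for counting error (1 library per group). The FAKI day 7 point is the highest in each panel, CXCL11 falls to 0.4444 CPM in the FAKI graft at day 90, and CXCR3 is at 0.2751 CPM there against 0.6803 CPM in the untreated graft.

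Cells with a CXCL10 UMI made up 43.9% of the FAKI library and 12.8% of the untreated library at day 7, and 37.9% and 8.53% once each cell was thinned to 2000 UMIs. Thinning left out 1679 and 974 shallower cells. A positive cell held on average 79.9 CXCL10 UMIs in the FAKI graft and 19.6 in the untreated graft. More cells with CXCL10 and more CXCL10 per positive cell were both measured. The RNA was also spread over more cells, since the top 1% of cells held 21.7% of CXCL10 UMIs in the FAKI graft and 63.5% in the untreated graft. For CXCL9 the top 1% held 54.4% in the FAKI graft and 79.7% in the untreated graft, and 94.2% to 96.4% in the other 3 libraries. A few cells therefore carried nearly all CXCL9 at day 90 and in unwounded skin.

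A level over all cells moves with the mix of cell classes as well as with RNA per cell. Pericyte or smooth muscle-like cells made up 27% of the FAKI library and 21.4% of the untreated library at day 7, and endothelial-like cells 13.5% and 19.1%. The T or NK-like class held 1919 cells (22.2%) in the FAKI library and 964 cells (12.7%) in the untreated library. With the FAKI classes weighed by the cell mix of the untreated graft, the day 7 ratio was 14.9 for CXCL10, 8.29 for CXCL9 and 8.79 for CXCL11. The CXCR3 ratio was 1.46 in that mix, below the 1.5-fold rule.

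By cell class, CXCL10 was highest in C1Q macrophage-type myeloid-like cells, at 11516.8 CPM in the FAKI graft and 941.1 CPM in the untreated graft at day 7. These cells were few, and the pericyte or smooth muscle-like class held most of the RNA. It held 54.9% of all CXCL10 UMIs in the FAKI graft and 19.9% in the untreated graft, at 8919 CPM and 339.5 CPM. Endothelial-like cells held 18% in the FAKI graft and 30.5% in the untreated graft, and keratinocyte-like cells 5.28% and 18.1%. The leading source in the sums was thus mural in the FAKI graft and endothelial in the untreated graft. A cluster led by SPP1 and ARG1 with the neutrophil genes S100A8 and S100A12, whose second-best marker list was myeloid, had 7959.3 CPM of CXCL10 in the FAKI graft and 151.4 CPM in the untreated graft. Its ratio of 52.6 (48.9 to 56.6) exceeded those of the pericyte or smooth muscle-like class at 26.3 (25.4 to 27.1), endothelial-like cells at 13.5, myeloid-like cells at 12.2 and keratinocyte-like cells at 5.25. The share of genes higher by 1.5-fold was 7.83% in that cluster, 2.63% in the pericyte or smooth muscle-like class, 2.01% in endothelial-like, 11.5% in myeloid-like and 4.66% in keratinocyte-like cells. The split between the SPP1 and ARG1 cluster and the myeloid-like class moved with the settings. They held 1055 and 754 cells over all libraries. Clustering without members and interferon genes gave 449 neutrophil-named and 1116 myeloid-named cells, with SPP1 among the leading genes of the latter. Their ligand levels were not recomputed there, so their ranking holds for the main clustering only.

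Within the mural class, 1 cluster set the total. Cluster 19, which carried the carbonic anhydrase gene CA4 and was led by CXCL10 and CXCL9 themselves, held 684 cells of the FAKI graft and 18 of the untreated graft at day 7. Its CXCL10 level in the FAKI graft was 25194.2 CPM, with a UMI in 92.7% of cells. The other 3 mural clusters, with 258 to 763 FAKI cells and 326 to 643 untreated cells, also had more CXCL10 in the FAKI graft. The CA4 and RGS5 pericyte cluster had 3512.3 CPM in the FAKI graft against 630.9 CPM in the untreated graft. The CCL19 and DES cluster had 1630.6 CPM against 148.8 CPM, and the MYH11 smooth muscle cluster 1214.3 CPM against 10.42 CPM. CXCL9 behaved otherwise, since 26056 of its 27136 mural UMIs in the FAKI graft lay in cluster 19. In the CCL19 and DES cluster CXCL9 stood at 46.07 CPM in the FAKI graft and 145.9 CPM in the untreated graft, and in the CA4 and RGS5 cluster at 153.9 CPM and 104.1 CPM. The clusters were built from genes that include the ligands, so cells rich in them were gathered into cluster 19 by construction.

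The level of CXCL9 was highest in endothelial-like cells. They had 3166.7 CPM in the FAKI graft and 374.6 CPM in the untreated graft at day 7, a ratio of 8.45, and 33.1% and 16.6% of them held a UMI. The pericyte or smooth muscle-like class had 1454 CPM against 150.5 CPM, a ratio of 9.66, and myeloid-like cells 1882.6 CPM against 58.67 CPM, a ratio of 32.1 (27.1 to 38.2). Endothelial-like cells held 43.1% of CXCL9 UMIs in the FAKI graft and 60.5% in the untreated graft, and the pericyte or smooth muscle-like class 43.6% and 22.2%. The endothelial cluster led by CXCL11, CXCL9 and the growth factor gene CSF3 held 25597 of the 26824 endothelial CXCL9 UMIs in the FAKI graft and 3463 of 4548 in the untreated graft. It had 5193.6 CPM of CXCL9 in 824 FAKI cells and 720.7 CPM in 820 untreated cells. The number of cells in this cluster was close in both grafts, but it was a larger part of the endothelial-like cells in the FAKI graft. That class held 1166 cells in the FAKI graft and 1443 in the untreated graft. Membership of this cluster, like that of cluster 19, was set in part by the ligands themselves. Keratinocyte-like cells had 155.3 CPM in the FAKI graft and 8.128 CPM in the untreated graft.

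CXCL11 was shared between endothelium and epidermis. Endothelial-like cells had 583.1 CPM in the FAKI graft and 42.91 CPM in the untreated graft at day 7, a ratio of 13.6 (12.4 to 14.9). Keratinocyte-like cells had 429.8 CPM in the FAKI graft and 88.67 CPM in the untreated graft, a ratio of 4.85. A CXCL11 UMI was found in 54.1% of keratinocyte-like cells of the FAKI graft and 22.7% of those of the untreated graft, and in 32.9% and 6.78% after thinning. Endothelial-like cells with a CXCL11 UMI were rarer, at 14.2% in the FAKI graft and 2.49% in the untreated graft, so CXCL11 was spread over keratinocytes and concentrated in few endothelial cells. The pericyte or smooth muscle-like class had 31.34 CPM of CXCL11 in the FAKI graft and 3.24 CPM in the untreated graft. The SPP1 and ARG1 cluster had 371 CPM in the FAKI graft and 8.323 CPM in the untreated graft, a ratio of 44.6 (32.8 to 62.2). Keratinocyte-like cells held 26.3% of CXCL11 UMIs in the FAKI graft and 44% in the untreated graft.

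**Figure D2:**
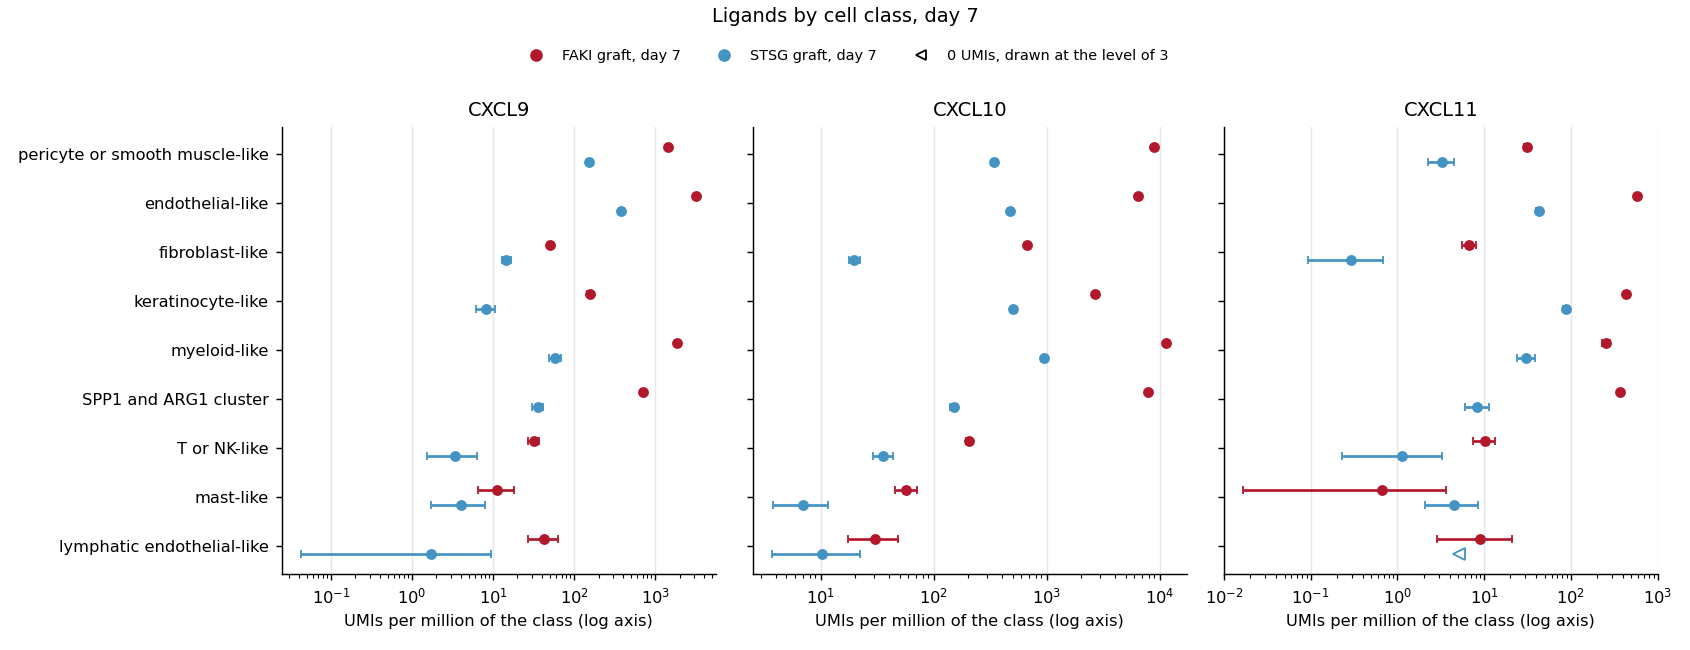
Level of each ligand within a cell class at day 7, in CPM of the class on a log axis, FAKI graft in red above the untreated STSG graft in blue, with exact Poisson intervals for counting error. The FAKI point lies to the right for CXCL9 and CXCL10 in every class drawn and for CXCL11 in all but the mast-like class, which held 1 UMI against 9.

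Stray RNA was gauged in mast-like cells, which are not known as a main source of these ligands. A CXCL10 UMI was found in 16.4% of mast-like cells of the FAKI graft and 1.91% of those of the untreated graft, at median depths of 3718 and 4300.5 UMIs. For CXCL9 the shares were 4.53% and 1.44%, and CXCL11 had 1 UMI in the FAKI cells and 9 in the untreated cells. Of the 58 FAKI cells with a UMI, 11 held more than 1, and the ligand UMIs of mast-like cells in the FAKI graft were 16.2% CXCL9 and 82.9% CXCL10, against 16.6% and 80.8% in the whole library. T or NK-like cells had a CXCL10 UMI in 17.9% of FAKI cells and 3.11% of untreated cells, at median depths of 2038 and 2401 UMIs. Those shares lay just above the mast-like ones, and the part of stray RNA in them was not tested. The CXCL10 level of T or NK-like cells was 2.31% of the pericyte or smooth muscle-like level in the FAKI graft, where 10 mural markers stood at a median of 0.682% and at most 4.58%. In the untreated graft it was 10.6%, where those markers reached 3.54%, and 1 cell held 50 of the 96 UMIs.

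Fibroblast-like cells had 676.4 CPM of CXCL10 in the FAKI graft and 19.95 CPM in the untreated graft, a ratio of 33.9, in a class where 3.02% of genes were higher by 1.5-fold. Cells with a UMI were 28.9% of the FAKI class and 4.59% of the untreated class, and 14.4% and 1.1% after thinning, close to the 10.9% and 0.525% of thinned mast-like cells. A positive fibroblast-like cell held a median of 1 UMI in both grafts, and 14 cells held 46.5% of the UMIs in the FAKI graft. Its CXCL10 stood at 7.58% of the mural level in the FAKI graft, where mural markers had a median of 4.4% and reached 39%. The part of stray RNA and of residual mural cells in the fibroblast values was not tested. In keratinocyte-like cells CXCL10 stood at 29.9% of the mural level in the FAKI graft and 149.4% in the untreated graft. Mural markers in these cells had medians of 1.28% and 0.751% and reached 10.5% and 9.09%.

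The make-up of the ligand RNA differed by class. Each transcript is tagged at its 3′ end, so UMIs of different genes are compared without a length correction, although how completely each gene's 3′ end is annotated was not tested. In the FAKI graft at day 7, CXCL10 made up 85.7% of the ligand UMIs of the pericyte or smooth muscle-like class, 63.2% of those of endothelial-like cells and 82% of those of keratinocyte-like cells. In the untreated graft those shares were 68.8%, 53.2% and 84%. CXCL9 was 31.1% of the endothelial-like total in the FAKI graft and 42% in the untreated graft, but 4.78% and 1.35% in keratinocyte-like cells. CXCL11 made up 13.2% in the FAKI graft and 14.7% in the untreated graft of the keratinocyte-like total, and 0.301% and 0.657% of the mural total. Among these classes, mural cells were thus CXCL10 makers with almost no CXCL11, endothelial cells were the CXCL9-rich class, and keratinocytes were the CXCL11-rich class in both grafts. A high CXCL9 share was not confined to endothelium. It was 41.8% of 601 ligand UMIs in fibroblast-like cells of the untreated graft, but 6.9% in those of the FAKI graft. In lymphatic endothelial-like cells of the FAKI graft it was 52.2% of 46 UMIs.

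**Figure D3:**
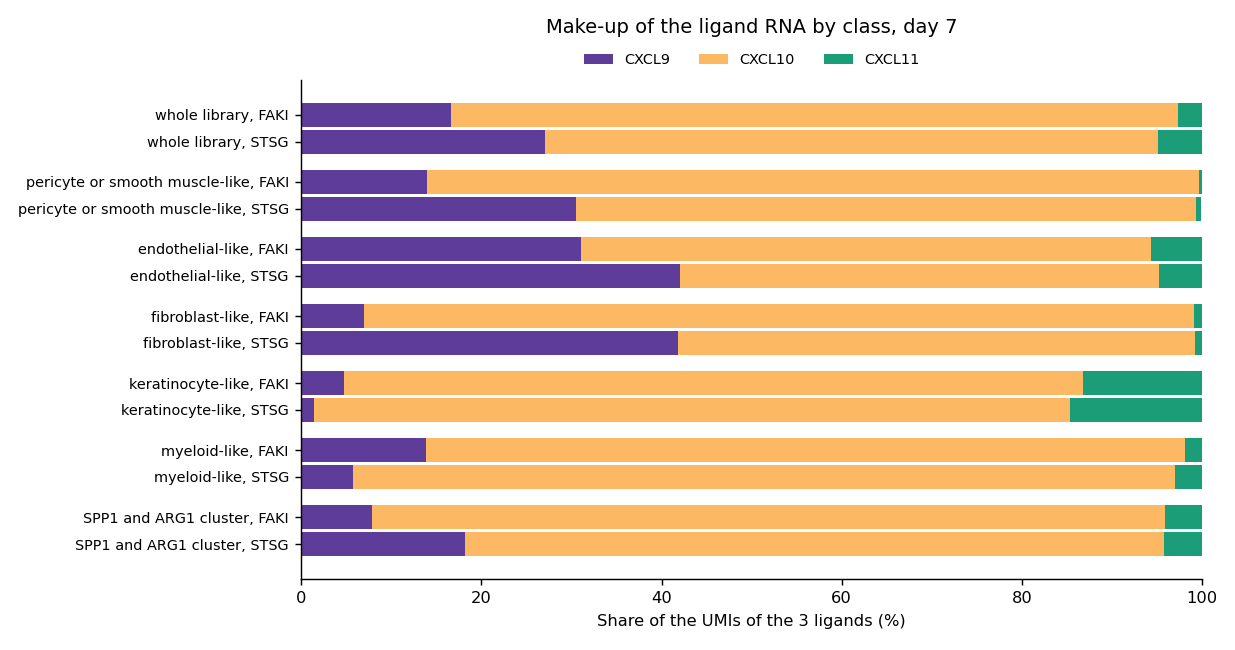
Share of CXCL9, CXCL10 and CXCL11 among the UMIs of the 3 ligands at day 7, in percent, by cell class, FAKI graft above the untreated STSG graft. CXCL11 is widest in keratinocyte-like cells (13.2% in the FAKI graft and 14.7% in the untreated graft) and CXCL9 is wide in endothelial-like cells (31.1% and 42%).

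Single cells often held more than 1 ligand. At least 1 ligand UMI was found in 47.7% of cells of the FAKI graft and 17.1% of cells of the untreated graft at day 7. All 3 were found in 300 cells (3.47%) of the FAKI graft and 34 cells (0.449%) of the untreated graft. Cells with all 3 were 12% of endothelial-like cells in the FAKI graft and 1.52% in the untreated graft, and 11.3% and 0.425% of keratinocyte-like cells. Of cells with CXCL9, 80.3% also had CXCL10 in the FAKI graft and 44.2% in the untreated graft, while cells without CXCL9 had it in 37.4% and 10.8%. Endothelial-like cells with CXCL11 had CXCL10 in 93.4% of cases in the FAKI graft and 80.6% in the untreated graft, and CXCL9 in 86.7% and 77.8%. CXCL11 in endothelium was thus nested within the cells that carried the other ligands. Keratinocyte-like cells of the untreated graft differed, since 38.3% of those with CXCL11 had CXCL10 and 3.74% had CXCL9. Deeper cells and stray RNA raise all such shares, and their part was not tested.

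The receptor sat in lymphocytes. T or NK-like cells held 89.9% of CXCR3 UMIs in the FAKI graft and 81.7% in the untreated graft at day 7, and 92.3% and 82% at day 90. In unwounded skin, all 6 CXCR3 UMIs lay in its 23 T or NK-like cells. Within T or NK-like cells CXCR3 stood at 71.9 CPM (64.45 to 79.98) in the FAKI graft and 43.33 CPM (35.8 to 51.97) in the untreated graft at day 7, a ratio of 1.66 (1.34 to 2.07) in a class where 4.09% of genes were higher by 1.5-fold. A UMI was found in 14.4% of these cells in the FAKI graft and 9.54% in the untreated graft, and in 13.8% and 6.63% after thinning. No mast-like cell had a CXCR3 UMI (0 of 353 in the FAKI graft, where 3 counts of the total allow a share of up to 0.85%, and 0 of 418 in the untreated graft, up to 0.718%). Fibroblast-like cells had 7 UMIs in the FAKI graft and 0 in the untreated graft. The whole-library gap in CXCR3 thus went with more T or NK-like cells and a smaller gap in level per cell. B or plasma-like cells had 12 UMIs (15.36 CPM) in the FAKI graft and 7 UMIs (11.2 CPM) in the untreated graft.

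Among lymphocytes, CXCR3 lay in the cytotoxic and the helper-type cluster and was scarce in the interleukin-17 cluster. The cluster led by the granule genes GNLY, GZMH and GZMA had 105.6 CPM (91.05 to 121.8) in the FAKI graft and 94.32 CPM (72.94 to 120) in the untreated graft at day 7. The helper-type cluster led by TNFRSF4, CD2 and CD3E had 88.33 CPM (74.58 to 103.9) in the FAKI graft and 43.71 CPM (32.44 to 57.62) in the untreated graft. The cluster with IL17F and IL17A had 5 UMIs (3.901 CPM) in the FAKI graft and 0 in the untreated graft. The intervals of the grafts lay apart in the helper-type cluster and overlapped in the cytotoxic cluster, and the difference between the clusters was not tested. The cytotoxic cluster held 831 cells of the FAKI graft and 308 of the untreated graft, the helper-type cluster 684 and 389, and the interleukin-17 cluster 404 and 267.

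Genes found in the same T or NK-like cell gave a like picture. A CXCR3 UMI stood in 27.8% of cells with a UMI of the co-receptor chain CD8B in the FAKI graft and 18.6% in the untreated graft. Of cells with CD4, 36 of 152 (23.7%) had CXCR3 in the FAKI graft and 9 of 120 (7.5%) in the untreated graft. Cells with IL2RA, the interleukin-2 receptor chain of activated and regulatory T cells, had it in 20 of 332 cases (6.02%) in the FAKI graft and 4 of 202 (1.98%) in the untreated graft, below the class as a whole. None of 32 FAKI cells and none of 36 untreated cells with FOXP3, the regulatory T cell factor, had a CXCR3 UMI. By the same rule of 3 counts this allows a share of up to 9.38% in the FAKI graft and 8.33% in the untreated graft, which limits cells with a UMI and not cells that express the receptor. Cells with the type 2 and skin-homing receptor CCR4 had CXCR3 in 10.7% of cases in the FAKI graft and 5.88% in the untreated graft.

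**Figure D4:**
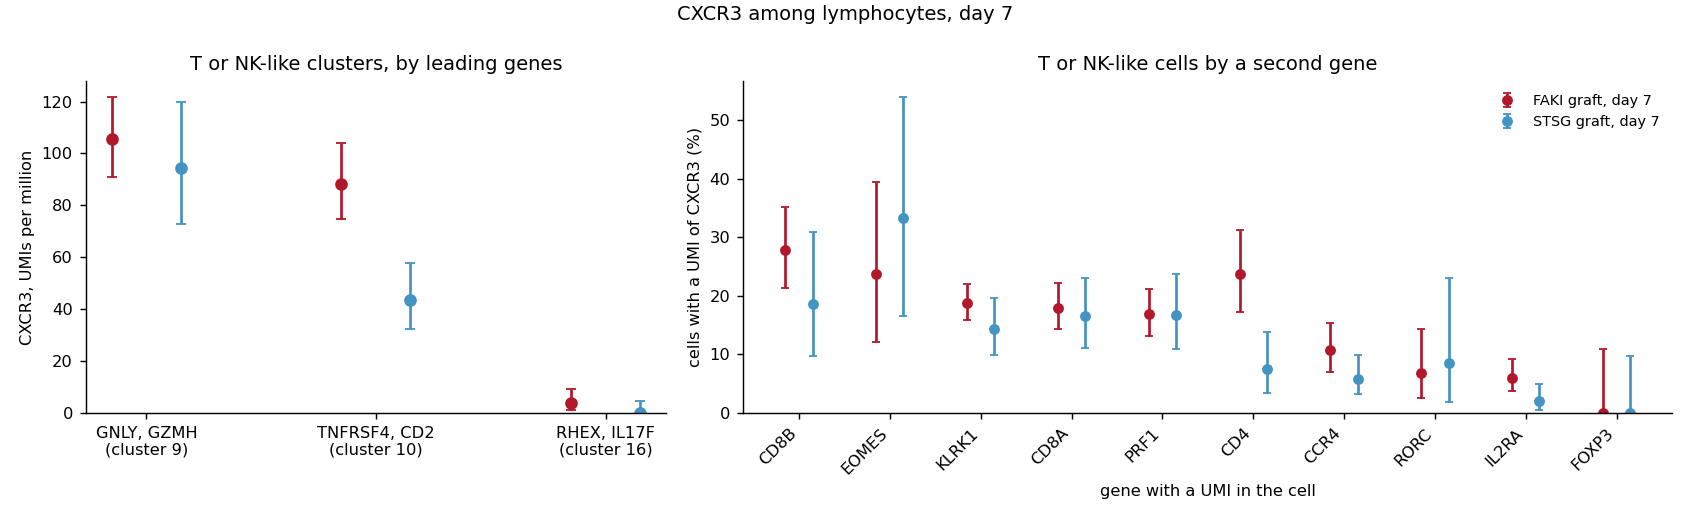
Left, CXCR3 in CPM in the T or NK-like clusters named by their leading genes at day 7; right, percent of T or NK-like cells with a CXCR3 UMI among cells that also have a UMI of the gene on the axis, FAKI graft (red) left of the untreated STSG graft (blue). Intervals are exact and cover counting error; among the genes drawn, cells with CD4 differ most between the grafts (23.7% and 7.5%), and FOXP3 cells are at 0 in both.

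Cells with CXCR3 had CXCL10 in 22.9% of cases in the FAKI graft and 6.03% in the untreated graft, under the share over all cells in each library. Both shares lay above those given earlier for T or NK-like cells, the class that held most CXCR3. Interferon-γ RNA was rare. IFNG had 65 UMIs in the FAKI graft, of which 62 lay in 28 T or NK-like cells, and 7 UMIs, all in T or NK-like cells, in the untreated graft. Per class this was 13.15 CPM in the FAKI graft and 2.615 CPM in the untreated graft, a ratio of 5.03 (2.3 to 13). The other 3 libraries had 1 UMI each. Of type I interferons, IFNB1 had 19 UMIs in the FAKI graft and 11 in the untreated graft at day 7, and IFNA1 and IFNK had 0 in every library. IFNE, an epithelial type I interferon, had 114 UMIs in the FAKI graft and 59 in the untreated graft at day 7, then 30 in the FAKI graft and 327 in the untreated graft at day 90, and 13 in unwounded skin. At day 90 most IFNE UMIs lay in fibroblast-like cells, with 26 UMIs (1.92 CPM) in the FAKI graft and 315 (8.369 CPM) in the untreated graft. In keratinocyte-like cells at day 7 IFNE stood at 14.3 CPM (11.44 to 17.66) in the FAKI graft and 7.389 CPM (5.484 to 9.741) in the untreated graft.

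Against unwounded skin, where 16.6% of genes were higher in the FAKI day 7 graft and 14.4% in the untreated day 7 graft, the day 7 grafts had more of every member. Both comparisons share the unwounded library. CXCL11 was 131.8-fold higher in the FAKI graft (84.4 to 219) and 19.1-fold higher in the untreated graft (12.2 to 31.8), from 19 UMIs in unwounded skin. CXCL10 was 52.4-fold higher in the FAKI graft and 3.41-fold higher in the untreated graft. In unwounded skin the ligands were endothelial, since endothelial-like cells, 42.3% of that library, held 99% of CXCL9, 90.3% of CXCL10 and 68.4% of CXCL11 UMIs, with the rest of CXCL11 in keratinocyte-like cells. Its endothelial-like cells had 162.1 CPM of CXCL10, 73 CPM of CXCL9 and 1.582 CPM of CXCL11. Its pericyte or smooth muscle-like cells had 63.48 CPM of CXCL10 and no CXCL9 UMI, which makes mural CXCL9 at least 954.4-fold higher in the FAKI graft and at least 98.8-fold higher in the untreated graft at day 7, against a floor of 3 UMIs over the class. Genes higher by 1.5-fold in that class made up 16.1% in the FAKI graft and 14.8% in the untreated graft. Mural CXCL9 was thus found in grafts and not, at this depth, in unwounded skin, and at day 90 it was still at least 119.5-fold higher in the FAKI graft and at least 103.8-fold higher in the untreated graft, where 4.79% and 11.0% of genes were higher.

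By day 90 most of the day 7 ligand RNA was gone. Day 90 over day 7 ratios were 0.0243 for CXCL10, 0.0811 for CXCL9 and 0.00315 for CXCL11 in FAKI grafts, and 0.187, 0.331 and 0.022 in untreated grafts, beside 16.4% of genes lower by 1.5-fold in FAKI grafts and 14.7% in untreated grafts. Between the grafts at day 90, the ratio was 1.99 (1.91 to 2.07) for CXCL10 and 1.94 (1.85 to 2.04) for CXCL9, while 10.5% of genes were higher in the FAKI graft by 1.5-fold and 5.37% lower. Within the endothelial-like and the pericyte or smooth muscle-like class the gap was smaller. Myeloid-like cells (51 in the FAKI graft and 259 in the untreated graft) were further apart than the mural class. Their CXCL9 stood at 91.4% of the mural level in the FAKI graft and 46.2% in the untreated graft, and their CXCL10 at 71.2% and 51.7%. Endothelial-like cells had 123 CPM of CXCL10 in the FAKI graft and 92.81 CPM in the untreated graft, and 74.81 CPM and 73.1 CPM of CXCL9. The pericyte or smooth muscle-like class had 288.1 CPM of CXCL10 in the FAKI graft and 220.8 CPM in the untreated graft, and 182.1 CPM and 158.2 CPM of CXCL9. These ratios of 1.02 to 1.33 were below 1.5-fold, where 1.11% of genes in endothelial-like cells and 2.99% in the pericyte or smooth muscle-like class were higher by that size, and in the untreated graft's class mix the whole-library ratio was 1.61 for CXCL10 and 1.67 for CXCL9.

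Fibroblast-like cells at day 90 had larger ratios that rested on few cells, in a class where 6.40% of genes were higher by 1.5-fold. CXCL9 stood at 36.7 CPM in the FAKI graft and 2.418 CPM in the untreated graft, a ratio of 15.2, and CXCL10 at 20.82 CPM and 1.275 CPM, a ratio of 16.3. In the FAKI graft 8 of 770 cells held 98.4% of the CXCL9 and 94.7% of the CXCL10. With predicted doublets kept, the ratios were 4.64 for CXCL9 and 1.93 for CXCL10. CXCR3 in T or NK-like cells at day 90 was 61.07 CPM (12 UMIs in 76 cells) in the FAKI graft and 66.94 CPM (41 UMIs in 213 cells) in the untreated graft, a ratio of 0.912 (0.436 to 1.77). A difference in level per cell was not detectable at that depth, and the lower whole-library CXCR3 of the FAKI graft, 0.404 of the untreated level (0.201 to 0.756), stood beside T or NK-like shares of 2.06% and 3.95%.

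Other genes of the pathway were followed in lists, given as counts past 1.5-fold beside the median log2 ratio, with all genes at a median of -0.07 in the day 7 whole-library comparison. Of the interferon-γ targets at 10 CPM or more, 10 of 17 were higher in the FAKI graft and 0 lower, with a median of 1.01, beside 2.32% higher and 4.94% lower of all genes. Of the type I interferon targets, 12 of 19 were higher and 0 lower, with a median of 0.76. GBP1, a guanylate-binding protein of antimicrobial defence, had 296.5 CPM in the FAKI graft and 55.34 CPM in the untreated graft, and GBP2 of the same family 57.49 CPM and 9.201 CPM. WARS, the tryptophanyl-tRNA synthetase that interferon-γ induces, had 90.55 CPM in the FAKI graft and 24.23 CPM in the untreated graft, and the ubiquitin-like modifier UBD 45.14 CPM and 14.52 CPM. Among type I targets the exonuclease gene ISG20 had 56.34 CPM in the FAKI graft and 16.12 CPM in the untreated graft, and PARP14, an ADP-ribosyltransferase, 72.7 CPM and 28.8 CPM. The called genes of both lists were thus all higher in the FAKI graft, with smaller ratios than that of CXCL10.

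Among interferon-γ receptor and signalling genes, IRF1 was higher, at 582.3 CPM in the FAKI graft and 224.3 CPM in the untreated graft. Unwounded skin had 713.8 CPM of IRF1, above both grafts. The receptor chain gene IFNGR1 had 80.19 CPM in the FAKI graft and 90.69 CPM in the untreated graft, and its partner IFNGR2 136.4 CPM and 152.9 CPM. Of 7 type I and III interferon signalling genes, IRF7, the regulator of type I interferon genes, had 92.17 CPM in the FAKI graft and 35.4 CPM in the untreated graft, and the protease gene USP18 was higher by 1.79-fold. Of 13 genes for cytokines and NF-κB factors that act with interferon, 3 were higher and 1 lower. Interleukin-15, a growth factor of T and NK cells, had 40.19 CPM in the FAKI graft and 21.21 CPM in the untreated graft, and the interleukin-27 subunit gene IL27 21.06 CPM and 9.471 CPM. The gene of its partner subunit, EBI3, was the lower one, at 5.552 CPM in the FAKI graft and 11.36 CPM in the untreated graft.

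The same lists were read within classes. In the pericyte or smooth muscle-like class 19 of 19 type I targets and 10 of 16 interferon-γ targets were higher in the FAKI graft, with medians of 1.43 and 1.89 beside -0.10 over all genes, of which 2.63% were higher by 1.5-fold. GBP1 there had 319.2 CPM in the FAKI graft and 8.64 CPM in the untreated graft. In endothelial-like cells 15 of 23 type I targets and 9 of 17 interferon-γ targets were higher, with medians of 0.80 and 0.72 beside -0.03 and 2.01% of all genes higher. WARS there had 219.8 CPM in the FAKI graft and 35.75 CPM in the untreated graft. In keratinocyte-like cells 12 of 15 interferon-γ targets were higher, beside 4.66% of all genes, and of 24 type I targets 17 were higher and 1, the antiviral gene IFIT2, was lower at 0.35 of the untreated level, in a class where 8.08% of genes were lower by 1.5-fold. In T or NK-like cells 18 of 20 type I targets and 7 of 15 interferon-γ targets were higher, with medians of 1.25 and 0.54, beside 4.09% of all genes higher.

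Genes around the receptor were compared as well. Of the type 1 lymphocyte genes, 6 of 9 were higher over all cells in the FAKI graft at day 7 and 0 lower, beside 2.32% of all genes higher. Within T or NK-like cells 8 of 17 were higher with a median of 0.58 beside -0.04 over all genes, of which 4.09% were higher. The cytotoxic cluster made up 831 of the 1919 T or NK-like cells in the FAKI graft and 308 of 964 in the untreated graft, and its part in these values was not tested. GZMA, a granule protease of killer cells, had 1072.1 CPM in T or NK-like cells of the FAKI graft and 423.6 CPM in those of the untreated graft. The receptor CCR4 went the other way in these cells, at 86.96 CPM in the FAKI graft and 199.8 CPM in the untreated graft, and of 7 other chemokine receptors at level it and CCR2 were lower and none was higher, beside 7.34% of all genes lower. Of 5 genes whose products bind or cut the ligands, ACKR1, a venular scavenger of chemokines, was lower over all cells, at 27.43 CPM in the FAKI graft and 48.39 CPM in the untreated graft. Within endothelial-like cells ACKR1 had 211.9 CPM in the FAKI graft and 241 CPM in the untreated graft, below 1.5-fold. The peptidase DPP4, which trims these ligands, had 47.49 CPM in the FAKI graft and 44.66 CPM in the untreated graft. Of 5 other CXC chemokines, PPBP, a platelet chemokine, was higher at 11.79 CPM against 6.069 CPM, and CXCL12, a stromal chemokine with its own receptors, was lower at 53.8 CPM against 104.4 CPM.

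**Figure D5:**
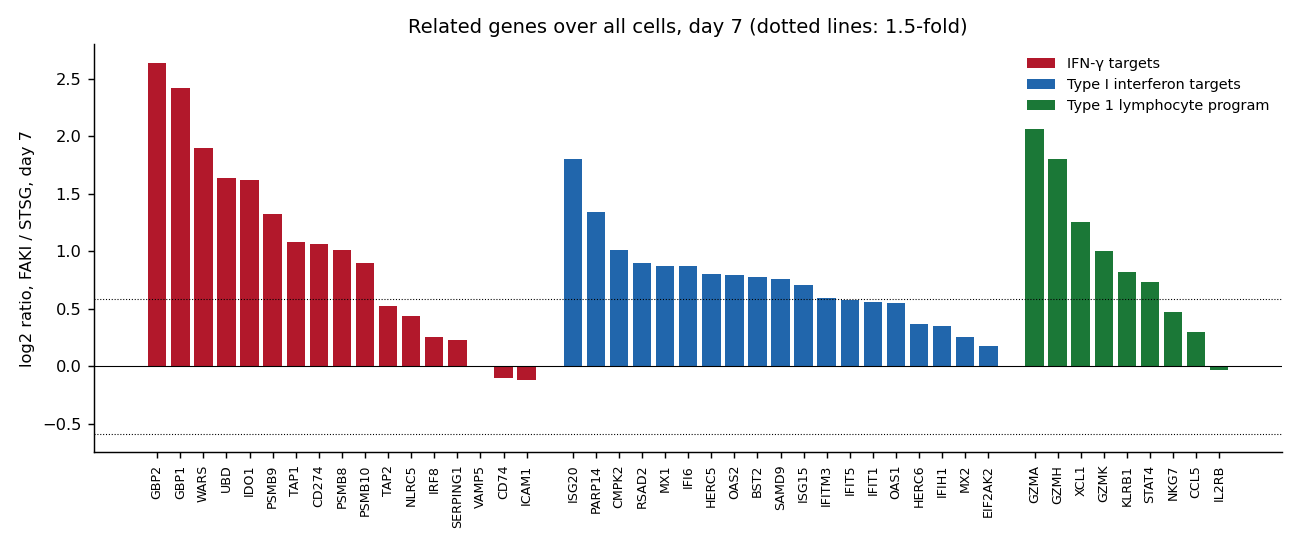
Log2 ratio of the FAKI to the untreated STSG graft at day 7 over all cells, for genes at 10 CPM or more in either library, grouped by list; dotted lines mark 1.5-fold. GBP2 and GBP1 stand highest among the interferon-γ targets, ISG20 among the type I targets and GZMA among the lymphocyte genes.

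At day 90 the interferon genes still differed between the grafts over all cells. In the FAKI graft 18 of 19 type I targets and 7 of 15 interferon-γ targets were higher, with medians of 0.85 and 0.56 beside 0.10 over all genes, of which 10.5% were higher by 1.5-fold. Against unwounded skin, 20 of 21 type I targets were lower in the untreated graft at day 90 and 5 of 21 in the FAKI graft, with medians of -1.29 and -0.47, beside 23.2% of all genes lower in the untreated graft and 8.06% in the FAKI graft. The day 90 grafts thus differed in a setting where the untreated graft lay under unwounded skin. At day 7 most type I targets lay below unwounded skin in the untreated graft, where ISG20 alone was higher by 1.5-fold. In the FAKI graft they were mixed, with more of them lower than higher. The share of all genes lower in these day 7 comparisons is not given here. RSAD2 stood at 0.514 of the unwounded level in the FAKI graft and 0.275 in the untreated graft, and OAS1 at 0.452 and 0.309. ISG20 was 20-fold higher in the FAKI graft and 5.72-fold in the untreated graft, and PARP14 stood at 2.46 and 0.974 of the unwounded level. The unwounded library is common to all of these comparisons. Within endothelial-like cells 4 of 23 type I targets were higher in the FAKI graft at day 90, beside 1.11% of all genes.

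Likeness of pattern was measured over 42 sums of a class in a library by the Pearson correlation of log2(CPM + 10), across 6076 genes. These sums share libraries, depth and cell classes, so the values are a description. CXCL9 and CXCL10 were most alike among the members (0.89), CXCL10 and CXCL11 less so (0.77), and CXCR3 was unlike all ligands (-0.21 with CXCL9). Outside the members, CXCL9 was nearest to WARS (0.78), SLC8A1 (0.76), OAS2 (0.75), LAP3 (0.74) and FBXO39 (0.73). CXCL10 was nearest to PRDM1 (0.77), MX1 (0.75), FBXO39 (0.74), OAS2 (0.74) and PPA1 (0.73), and CXCL11 to IRF7 (0.71), NRG1 (0.70), WARS (0.69), BATF2 (0.67) and PSMA5 (0.67). CXCR3 was nearest to SEPTIN1 (0.96), PCED1B (0.96), BLK (0.96), CTSW (0.95) and CD5 (0.95), genes raised in the lymphocyte sums. These neighbours depended on the scale. With log2(CPM + 1), only OAS2 stayed among the 5 nearest of CXCL9, MX1 and PRDM1 among those of CXCL10, and IRF7 and PSMA5 among those of CXCL11. For CXCR3, SEPTIN1, BLK and CD5 stayed.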

How the data were processed

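Pig skin cells were profiled with the 10x Chromium Single Cell 3′ v3 assay after enzymatic digestion and were sequenced on an Illumina instrument, per the labels' protocols. The deposited matrices hold raw UMI counts per gene and barcode for 5 libraries. The submitters' processing notes name Cell Ranger and Seurat 3.1.1, and the matrix headers give software version 3.1.0. The genome build is not given in the sources used here, so no coordinates or sequences are shown.

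Barcodes with 500 or more genes and at most 25% of counts from 13 mitochondrial genes were kept. An automatic doublet caller marked 0 cells in both day 7 libraries, so the cells with the highest doublet scores were removed at 0.8% per 1000 cells (19 to 700 per library). Cells of all libraries were clustered together with Scanpy 1.11.5 (2000 variable genes, 30 components, 20 neighbours, Leiden resolution 1, leidenalg 0.10.2), with no batch correction, and classes were named from marker lists. Of 153 listed markers 137 were measured. Summed counts are given per 1000000 (CPM), with exact Poisson, conditional binomial and Clopper-Pearson intervals (SciPy 1.17.1) that cover counting error only. Classes needed 50 cells in a library, and genes 10 CPM in either sum. A sum of 0 was set at a floor of 3 counts for folds. With 1 library per group no test was run. The summing and ratio steps were tested on simulated data.

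Some genes of the lists are not reported here. The members and gene lists were chosen with earlier results of these data known. Named genes were the members, up to 4 genes of each list with the largest absolute log2 ratio, and the 5 genes most like each member. IFNG, IFNE and the other type I interferons, IFNGR1 and IFNGR2, ACKR1 within endothelial-like cells and the second genes printed for lymphocytes were chosen after their values were seen.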

Additional observations from a re-analysis of the deposited data

Results flagged for a closer look

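CXCR3 over all cells went in opposite directions at the 2 times, with a log2 ratio of the FAKI to the untreated graft of 1.35 at day 7 and -1.31 at day 90. This difference between the times was not tested, since each group is 1 library. The day 90 value rests on 13 UMIs in the FAKI graft and 50 in the untreated graft.

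Relative to unwounded skin, CXCL10 over all cells lay on opposite sides in the 2 day 90 grafts, at 0.35 on the log2 scale in the FAKI graft and -0.65 in the untreated graft. In FAKI grafts the log2 ratio to unwounded skin changed sign between day 90 and day 7 for CXCL11 over all cells (-1.27 at day 90, 7.04 at day 7), for CXCL10 in endothelial-like cells (-0.40 and 5.31) and for CXCL11 in endothelial-like cells (-1.21 and 8.53). In untreated grafts it did so for CXCL10 over all cells (-0.65 at day 90, 1.77 at day 7), for CXCL11 over all cells (-1.25 and 4.25) and for CXCL10 in endothelial-like cells (-0.80 and 1.55). These differences were not tested, and all share the unwounded library.

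Barcodes that failed the cell filter also held ligand RNA. In the FAKI day 7 library 1609 such barcodes, with a median of 672 UMIs, had 575.9 CPM of CXCL9, 2638.9 CPM of CXCL10 and 108.6 CPM of CXCL11. The 1454 such barcodes of the untreated day 7 library had 82.04, 167.4 and 11.72 CPM of the same genes, and the 322 of the unwounded library 0, 5.355 and 0 CPM.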

How the results depend on the processing

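Mural CXCL9 at day 7, higher in the FAKI graft over the class, was lower within cluster 0, at 46.07 CPM in the FAKI graft and 145.9 CPM in the untreated graft. The called results recomputed below kept their direction, and all 28 day 7 whole-library values and all 31 day 7 class values stayed positive. On the log2 scale, CXCL9 over all cells at day 7 (2.99) was 2.87 with every barcode, 2.87 with doublets kept, 2.73 as a mean per cell, 3.09 with median-of-ratios scaling and 3.05 in the class mix of the untreated graft. CXCL10 (3.94) was 3.85, 3.85, 3.89, 4.05 and 3.90 under the same 5. CXCL11 (2.79) was 2.89 with median-of-ratios scaling and 3.14 in that class mix, and CXCR3 (1.35) was 0.54 in that mix, below 1.5-fold. CXCL10 in the pericyte or smooth muscle-like class (4.72) was 4.38 as a mean per cell and 3.45, 6.86 and 2.48 within clusters 0, 3 and 4. In endothelial-like cells (3.76) it was 3.66 with doublets kept, 3.18 as a mean per cell, 3.49 when clustered without members and interferon genes, 3.28 with each library clustered alone, 3.87 at resolution 2, and 1.77, 3.64 and 3.18 within clusters 1, 2 and 11. In fibroblast-like cells (5.08) it was 4.43 as a mean per cell, 4.80 with each library alone and 5.34 at resolution 2. The class mix, the single clusters, the doublets kept at day 90 and the removal of shared barcodes were chosen after seeing the data.

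Without shared barcodes, CXCL9 in the untreated graft at day 90 over unwounded skin was -0.27 in place of 0.13, and CXCL10 there -0.92 in place of -0.65. CXCL9 in the FAKI graft at day 90 over unwounded skin was 0.75 in place of 1.08, and CXCL10 0.17 in place of 0.35. Fibroblast-like CXCL10 at day 90 (4.03) was 0.95 with doublets kept, and CXCL9 (3.92) was 2.21. The cause was not tested. Median-of-ratios scaling shifted log2 ratios by -0.21 to 0.32 over the 8 comparisons. At 50 CPM in place of 10 CPM, 86 genes were higher and 121 lower in the FAKI graft at day 7, in place of 179 and 381, with fewer genes tested. Thinning to 2000 UMIs moved 18 of 20 shares of cells. No paired analysis was possible because each group holds 1 library, and leaving out a replicate was not possible for the same reason. Depth limits CXCR3 and, outside day 7, CXCL11.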
